A study of Homo sapiens with 16 samples.

Results

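The genes described here are 52 genes of DNA replication and S phase, taken from a list of names and read by gene symbol from the deposited tables. All 52 were present in the count table of 62703 genes, and 48 of them were among the 10566 genes that passed the filter on low counts and were tested. The list is one of names and not of measured values, but it was drawn up with earlier results of these data known. It was grouped by role into origin licensing (11 genes), activation of the replicative helicase (5 genes), polymerases and primase (9 genes), the sliding clamp and its loader (6 genes), single-strand binding and Okazaki fragment processing (5 genes), nucleotide supply (5 genes), control of S-phase entry (3 genes), and chromatin and S-phase checkpoint factors (8 genes).

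Chromosomal DNA is copied once per cell cycle from origins that are licensed in G1, when the origin recognition complex, CDC6 and CDT1 load the ring of MCM2 to MCM7. In S phase, CDC45 and the GINS complex turn this ring into an active helicase, and polymerases held on DNA by the PCNA clamp copy both strands. Many of these genes are transcribed at the border of G1 and S phase by E2F transcription factors, so that their messenger RNA is often read as a measure of how many cells are cycling.

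Messenger RNA was counted in 16 libraries from spheroids of 3 established human prostate cancer cell lines: LNCaP, which depends on androgen and is sensitive to enzalutamide, 22Rv1, which carries an androgen receptor but resists enzalutamide, and PC3, which lacks it. MED12, a subunit of the Mediator complex, was silenced with 25 pmol of pooled siRNA (siMED12), control cells received a non-targeting pool (siCtrl), and all cells stayed in 2D culture for 3 days before 4 days as spheroids. The groups held 3 siCtrl and 3 siMED12 libraries in LNCaP, 3 and 2 in 22Rv1 (replicates 1 and 3), and 3 and 2 in PC3 (replicates 1 and 3), 7 days after transfection. The comparison addresses what loss of MED12 does to gene expression in lines that respond differently to enzalutamide. Each line stands for 1 tumor, the knockdown was transient, and the study describes its replicates in general as biological, but the labels do not tie single libraries to separate cultures, so a P value measures only the spread between these libraries.

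Library totals ran from 479118 to 993807 counts (median 764494), and the 52 genes took 0.313% to 0.538% of them. Levels are given as CPM, counts scaled to a common library size with the trimmed mean of M values. A count of 0 allows up to 3 counts, which correspond to 3.15 to 6.22 CPM depending on the library and cover counting error only. MED12 itself was read from 5 to 22 counts a library. Its 22Rv1 levels were 16.7, 19.2 and 23.4 CPM with siCtrl and 7.42 and 8.98 CPM with siMED12 (log2 fold change −1.28 ± 0.46 SE, adjusted P = 0.175, edgeR). In LNCaP the levels overlapped (9.94, 11.7 and 12.9 CPM against 6.67, 6.99 and 10.3 CPM, −0.50 ± 0.46, adjusted P = 0.878). In PC3 the siMED12 libraries, at 14.5 and 15.8 CPM, lay inside the siCtrl range of 8.41 to 28.4 CPM (−0.22 ± 0.43, adjusted P = 0.987). MED12 thus did not pass the test over all genes in any line, and no other measure of the knockdown was analysed here. The study reports that silencing of MED12 in its spheroids was highly efficient, in supplementary data not analysed here. The line labels were checked with markers: 7 transcripts of androgen-responsive prostate lines summed to 6110 to 6856 CPM in LNCaP siCtrl, 632 to 664 CPM in 22Rv1 siCtrl and 102 to 150 CPM in PC3 siCtrl, and 5 PC3 markers summed to 1344 to 1446 CPM in PC3 siCtrl against 55.2 to 143 CPM in the siCtrl libraries of the other lines. With siMED12 the androgen-responsive markers summed to 4533 to 5374 CPM in LNCaP, under the siCtrl range, with 1 of 7 called lower (KLK2, −0.89 ± 0.18, adjusted P = 0.0113). The PC3 markers summed to 73.2 to 130 CPM in 22Rv1 siMED12 against 55.2 to 57.7 CPM in siCtrl, with 1 of 4 tested called higher (CAV1, 1.64 ± 0.31, adjusted P = 0.00206). PC3-restricted transcripts stood at 4.80% of the PC3 level in 22Rv1 siMED12 replicate 3. Their part in the rise of the PC3 markers was not tested. The part of both marker shifts in the values of the replication genes was also not tested. A list of 7 markers of non-epithelial cells summed to at most 110 CPM in any library, with 3 to 5 of the 7 at 0 in every library of a group. Transcripts restricted to 1 line were found in others: 22Rv1 siMED12 replicate 3 held them at 4.80% of the PC3 level (at most 0.826% in the other 22Rv1 libraries), PC3 siMED12 replicate 3 at 2.62% of the LNCaP level and PC3 siCtrl replicate 3 at 2.60% of the 22Rv1 level, with all other values at or under 1.57%.

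The stretches just before the transcription start of E2F1, TYMS, UHRF1 and FEN1 are shown because these were, among the replication genes with a RefSeq promoter window, those with the smallest unadjusted P for siMED12 in 22Rv1; no gene passed the adjusted threshold, and the choice was made after the values were seen. Each is 150 bases on GRCh38.p14 from RefSeq, 5′ to 3′ on the strand of the gene, and ends 1 base before the RefSeq start, which for UHRF1 lies inside the gene span of Gencode. Capitals mark an E2F octamer (TTTGGCGC, TTTCCCGC, TTTCGCGC or TTTGCCGC, either strand).
E2F1 (chr20:33686386-33686535, minus strand): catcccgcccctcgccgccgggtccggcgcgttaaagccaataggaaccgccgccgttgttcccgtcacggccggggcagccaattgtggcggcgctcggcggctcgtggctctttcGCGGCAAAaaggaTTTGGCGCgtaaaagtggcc
TYMS (chr18:657503-657652, plus strand): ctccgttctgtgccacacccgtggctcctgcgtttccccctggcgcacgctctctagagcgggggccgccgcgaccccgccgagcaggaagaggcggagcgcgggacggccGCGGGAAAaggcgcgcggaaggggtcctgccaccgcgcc
UHRF1 (chr19:4909351-4909500, plus strand): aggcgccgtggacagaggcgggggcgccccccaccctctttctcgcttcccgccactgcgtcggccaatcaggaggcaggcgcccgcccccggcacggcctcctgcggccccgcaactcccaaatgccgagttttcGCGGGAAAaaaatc
FEN1 (chr11:61792761-61792910, plus strand): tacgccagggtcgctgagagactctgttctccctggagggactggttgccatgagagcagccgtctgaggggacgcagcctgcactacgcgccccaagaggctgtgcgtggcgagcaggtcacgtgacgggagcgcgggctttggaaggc

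E2F1, TYMS and UHRF1 held 2, 1 and 1 such octamers in these stretches, and FEN1 held none of these letters. Of the 52 genes, 45 had a window of 300 bases, 250 before and 50 after the start, and in the first listed window of each gene 22 of the 45 (48.9%) held at least 1 E2F octamer. The same letters stood in the first window of 5.55% of the 8223 tested genes with one and in 3.31% of all 35116 windows. They stood in 12.5% of 32 further replication genes, 47.8% of 23 further S-phase or E2F-regulated genes and 11.8% of 17 G2/M genes. CCAAT, a common promoter element, stood in the first window of 60% of the replication genes and of 37.2% of the tested genes. In those further lists CCAAT stood in 53.1%, 47.8% and 82.4%. The E-box CACGTG, which MYC can bind, stood in 11.1% of the replication genes and 10.9% of the tested genes. In the further lists the E-box stood in 15.6%, 13% and 29.4%. A match describes the letters and not a bound factor. The median siMED12 log2 fold change in 22Rv1 was −0.25 over the 21 tested genes with an E2F octamer and −0.30 over the 21 without, and 19 and 18 of them were under 0.

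The level of these genes in siCtrl spheroids differed between lines. 22Rv1 had the highest mean for 28 of the 48 tested genes, PC3 for 17 and LNCaP for 3, while LNCaP had the lowest for 30. Against LNCaP, 25 genes were higher in 22Rv1 and 3 lower at an adjusted P under 0.05 (edgeR quasi-likelihood test, Benjamini-Hochberg over the 10566 genes), where 22% of all genes tested were higher and 21.2% lower; the median log2 difference was 0.58 (0.00 over all genes). PC3 had 16 genes higher and 4 lower than LNCaP (29.2% and 25.5% of all genes), with a median of 0.39 against 0.05 over all genes. Between PC3 and 22Rv1, 6 genes were higher and 15 lower in PC3 (28.7% and 26.1% of all genes), with a median of −0.31 against 0.01. The share higher in 22Rv1 than in LNCaP was thus above the background and the share lower was under it. For PC3 against LNCaP the share higher was close to the background and the share lower was under it, and for PC3 against 22Rv1 the share higher was under it. For 12 genes no pair of lines differed at this threshold (ORC1, MCM6, GINS1, POLA2, RFC1, RFC5, RPA2, FEN1, CLSPN, TIPIN, CHAF1A and CHAF1B). In bulk samples fewer cells in S phase and less of these transcripts in each cell cannot be told apart.

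**Figure D1:**
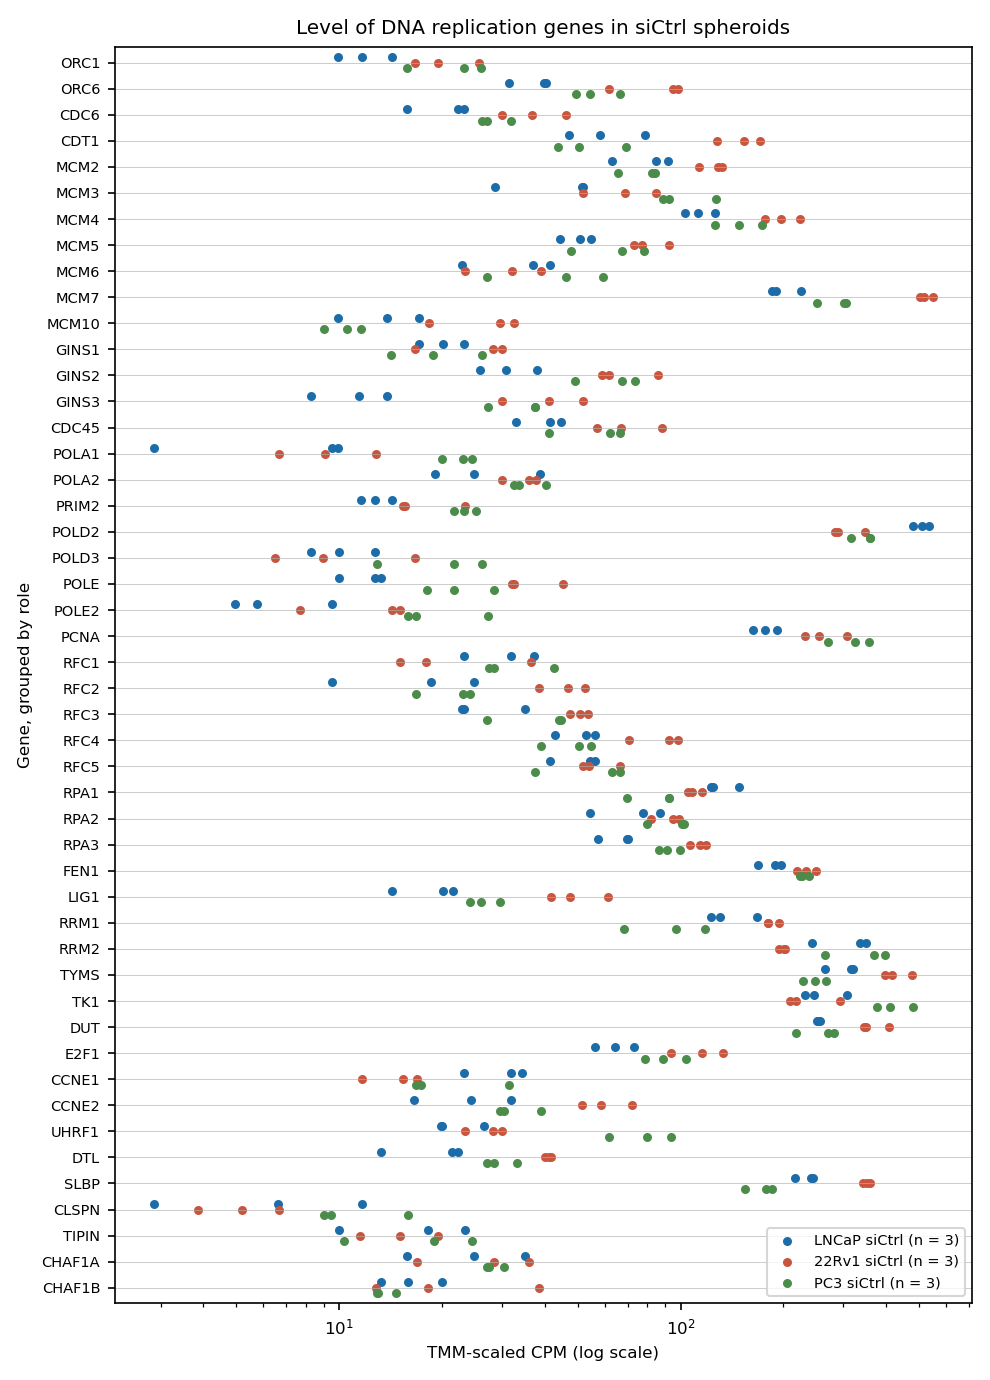
Level of each of the 48 tested genes (rows, grouped by role) in the siCtrl libraries, as CPM on a log scale; each point is 1 library and colors mark the line. 22Rv1 points lie highest for genes such as MCM7, CDT1 and LIG1, and PC3 points lie highest for UHRF1.

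Among the licensing genes, 9 of 11 were higher in 22Rv1 than in LNCaP and none was lower (22% and 21.2% of all genes). MCM7, a subunit of the MCM ring, read 186, 190 and 225 CPM in LNCaP, 501, 516 and 549 CPM in 22Rv1 and 250, 301 and 305 CPM in PC3. No 22Rv1 library overlapped another line, and MCM7 was 2.59-fold higher in 22Rv1 than in LNCaP (adjusted P = 9.82e-10) and 1.83-fold higher than in PC3 (adjusted P = 1.32e-06). CDT1, which loads the MCM ring with CDC6, read 47.3, 58.0 and 78.4 CPM in LNCaP, 128, 154 and 170 CPM in 22Rv1 and 43.9, 50.5 and 69.4 CPM in PC3. The LNCaP and PC3 libraries of CDT1 overlapped and 22Rv1 stood apart, 2.39-fold above LNCaP and 2.77-fold above PC3. CDC6 was 1.84-fold higher in 22Rv1 than in LNCaP (adjusted P = 0.014), at 37.6 ± 8.16 CPM (SD, n = 3) against 20.4 ± 4.05. ORC6, a subunit of the origin recognition complex, and MCM4 were also higher in 22Rv1 than in LNCaP (2.25-fold and 1.74-fold), and MCM2 and MCM10 were higher in 22Rv1 than in PC3 (1.60-fold and 2.62-fold). MCM10 rested on 7 to 10 counts a library in PC3 siCtrl. MCM3 had another order, 103 ± 21.1 CPM in PC3, 68.5 ± 16.4 in 22Rv1 and 44 ± 13.3 in LNCaP (SD, n = 3), and was 2.29-fold higher in PC3 than in LNCaP (adjusted P = 2.68e-05). The PC3 excess of MCM3 over 22Rv1, 1.47-fold, was lost without 22Rv1 siCtrl replicate 1 or 2 or PC3 siCtrl replicate 3 (adjusted P = 0.0569, 0.129 and 0.161) and with DESeq2 (adjusted P = 0.0571).

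LNCaP had the lowest mean for 3 of the 4 tested helicase activators, GINS2, GINS3 and CDC45, but not for GINS1. GINS3, a GINS subunit, read 8.28, 11.5 and 13.8 CPM in LNCaP against 29.9, 41.1 and 51.8 CPM in 22Rv1 and 27.3, 37.4 and 37.6 CPM in PC3. The LNCaP libraries were all lower than those of either other line, by 3.45-fold and 2.89-fold. GINS3 rested on 5 to 13 counts a library in LNCaP siCtrl. GINS2 was 2.21-fold higher in 22Rv1 and 2.02-fold higher in PC3 than in LNCaP, and CDC45, a partner of GINS in the active helicase, was 1.78-fold higher in 22Rv1 (adjusted P = 0.00315). Between PC3 and 22Rv1 none of the 4 tested helicase activators passed the threshold (28.7% of all genes were higher and 26.1% lower in PC3).

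The polymerases did not follow 1 order. POLD2, the regulatory subunit of polymerase delta, was the only one of the 48 genes called lower than LNCaP in both other lines, with 480, 510 and 533 CPM in LNCaP against 284 to 346 CPM in 22Rv1 and 315 to 360 CPM in PC3. The LNCaP libraries did not overlap the rest (1.66-fold and 1.47-fold higher). POLE, the catalytic subunit of polymerase epsilon, was 2.97-fold higher in 22Rv1 than in LNCaP, whereas POLA1, the catalytic subunit of polymerase alpha, was highest in PC3 (22.5 ± 2.32 CPM, SD, n = 3), 2.92-fold above LNCaP and 2.27-fold above 22Rv1. POLA1 rested on 2 to 9 counts a library in LNCaP siCtrl and 4 to 10 in 22Rv1 siCtrl. Its lowest LNCaP library, at 2.86 CPM, lay under the level of 3 counts. POLE2 was 2.85-fold higher in PC3 than in LNCaP on 3 to 26 counts a library, and not past the threshold after thinning (adjusted P = 0.0903). POLD3 was 1.99-fold higher in PC3 than in 22Rv1 on 5 to 25 counts a library, and this call was lost without LNCaP siCtrl replicate 3, 22Rv1 siCtrl replicate 1 or 3, or PC3 siCtrl replicate 2 or 3, with DESeq2 or limma, and after thinning (adjusted P from 0.0512 to 0.224).

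At the fork, PCNA, the sliding clamp, read 163, 177 and 192 CPM in LNCaP, 231, 254 and 308 CPM in 22Rv1 and 271, 324 and 357 CPM in PC3. All libraries of 22Rv1 and PC3 lay above LNCaP, by 1.49-fold (adjusted P = 0.00242) and 1.79-fold (adjusted P = 1.6e-05), and the 22Rv1 and PC3 libraries overlapped. The clamp loader subunit RFC2 was 2.78-fold higher in 22Rv1 than in LNCaP and RFC4 was 1.78-fold higher in 22Rv1 than in PC3. LIG1, the ligase that joins Okazaki fragments, was 2.69-fold higher in 22Rv1 than in LNCaP. RPA1, the large subunit of the single-strand binding protein RPA, was 1.56-fold lower in PC3 than in LNCaP.

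Enzymes of nucleotide supply split between the lines. RRM2, the S-phase subunit of ribonucleotide reductase, read 194, 201 and 203 CPM in 22Rv1, below the 242, 335 and 349 CPM of LNCaP and the 264, 370 and 397 CPM of PC3. The 22Rv1 libraries were the lowest without overlap, 1.55-fold under LNCaP (adjusted P = 0.00467) and 1.73-fold under PC3. RRM1, the partner subunit, had the reverse pattern between 22Rv1 and PC3, with 185 ± 7.54 CPM in 22Rv1, 141 ± 23.7 in LNCaP and 94.3 ± 24.8 in PC3 (SD, n = 3), and was 1.94-fold lower in PC3 than in 22Rv1. Its 1.49-fold deficit against LNCaP was lost without LNCaP siCtrl replicate 3 or PC3 siCtrl replicate 1 (adjusted P = 0.0717 and 0.0799). TYMS, thymidylate synthase, was highest in 22Rv1 at 430 ± 42.5 CPM, 1.43-fold above LNCaP and 1.74-fold above PC3. TK1, the thymidine kinase of the salvage route, was highest in PC3 at 422 ± 52.9 CPM, 1.62-fold above LNCaP and 1.75-fold above 22Rv1.

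Of the genes that control entry into S phase, the transcription factor gene E2F1 read 56.2, 64.4 and 72.9 CPM in LNCaP, 93.7, 115 and 133 CPM in 22Rv1 and 78.8, 89.0 and 104 CPM in PC3. It was 1.79-fold higher in 22Rv1 than in LNCaP (adjusted P = 0.00149), its 1.41-fold excess in PC3 was close to the threshold (adjusted P = 0.049), and its 22Rv1 and PC3 libraries overlapped. The paralogous cyclin E genes, which activate CDK2 at the G1/S border, went opposite ways. CCNE1 was lower in 22Rv1 than in LNCaP (14.7 ± 2.68 against 29.8 ± 5.85 CPM, adjusted P = 0.0123) and CCNE2 was higher (60.6 ± 10.4 against 24.2 ± 7.62 CPM, adjusted P = 0.00066). The CCNE1 call was lost without LNCaP siCtrl replicate 2 (adjusted P = 0.0533), with DESeq2 (adjusted P = 0.0670) and after thinning (adjusted P = 0.0671). UHRF1, which brings maintenance DNA methylation to replicated chromatin, read 61.9, 79.9 and 93.9 CPM in PC3 against 19.9 to 26.5 CPM in LNCaP and 23.4 to 29.9 CPM in 22Rv1. PC3 stood apart, 3.44-fold above LNCaP (adjusted P = 2.98e-07) and 2.84-fold above 22Rv1, where the LNCaP and 22Rv1 libraries overlapped. SLBP, which binds the stem-loop of histone messenger RNAs, was 2.03-fold lower in PC3 than in 22Rv1 (adjusted P = 2.27e-07), and its 1.35-fold deficit against LNCaP was lost without PC3 siCtrl replicate 3 (adjusted P = 0.0641).

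In the fit of 6 group means, none of the 48 genes was called for MED12 knockdown in any line. In LNCaP 0 of 48 passed an adjusted P of 0.05 (0.416% of all genes tested did) and no unadjusted P was under 0.05. For 22Rv1 the count was 0 of 48 (1.84% of all genes). Before adjustment 6 genes were lower and none higher at P under 0.05. At that level 5.37% of all genes were lower, and 673 of the 10566 genes were higher. In PC3 0 of 48 passed (0% of all genes), with 1 higher and 1 lower at an unadjusted P under 0.05 (2.63% and 2.36% of all genes). DESeq2 and limma called 0 of the 48 in every line as well. An edgeR fit with a replicate block called TYMS and TK1 lower in 22Rv1 (adjusted P = 0.0264 and 0.0373). The labels do not pair the libraries, so that fit was kept as an alternative.

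Although no single gene passed without that block, the values in 22Rv1 lay to 1 side. The log2 fold change was under 0 for 43 of 48 genes in 22Rv1 (48.7% of all genes tested), for 19 in LNCaP (50.4%) and for 20 in PC3 (55.6%). The medians were −0.26 in 22Rv1, 0.02 in LNCaP and 0.04 in PC3, against 0.01, −0.00 and −0.04 over all genes tested. Both 22Rv1 siMED12 libraries lay under all 3 siCtrl libraries for 17 of 48 genes and above them for 2 (DTL and CLSPN), where 12.9% of all genes lay under and 13.8% above. In LNCaP 0 of 48 lay under (6.75% of all genes) and 1, CDC6, above (6.42%). In PC3 4 lay under (11.9%) and 6 above (8.8%).

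**Figure D2:**
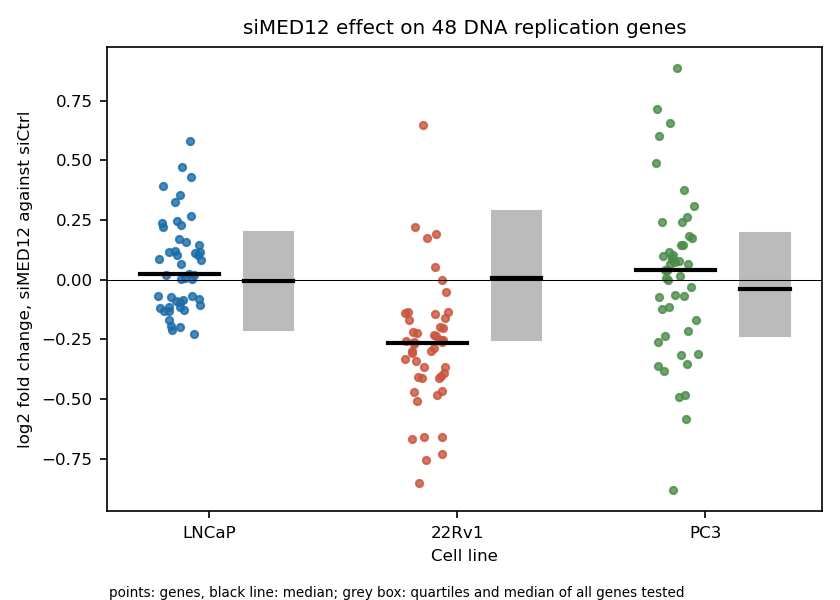
Log2 fold change of siMED12 against siCtrl for each of the 48 tested genes (points) in 3 lines, with the median (black line) and, in gray, the quartiles and median of all genes tested. The 22Rv1 points lie mostly under 0 with a median of −0.26, and those of LNCaP and PC3 are spread around 0.

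The same genes also moved together between libraries of 1 group, which limits what a count of 43 says. Measured against the siCtrl mean of the line, the median over the 48 genes was −0.28 and −0.21 in the 22Rv1 siMED12 libraries, with 40 and 39 genes below, and −0.04, −0.03 and 0.04 in the 22Rv1 siCtrl libraries. The siCtrl libraries are part of that mean and the siMED12 libraries are not, which holds the siCtrl values near it. In PC3, siCtrl replicate 1 alone lay at −0.19 with 41 of 48 genes below, and in LNCaP replicate 2 was the lowest library of both arms, at −0.14 with siCtrl and −0.26 with siMED12. LNCaP siMED12 replicate 2 also had the largest share of mitochondrial counts, 12.9% against 5.41% to 10.5% in the other libraries; its part in the result was not tested. Without it, the LNCaP median was 0.20, and without siMED12 replicate 3 it was −0.08. The 48 genes are thus no 48 independent measurements, and no P value is given for their sum. As a share of all counts the 52 genes went from 0.513% ± 0.0215 (SD, n = 3) to 0.436% ± 0.00988 (n = 2) in 22Rv1, from 0.373% ± 0.0299 to 0.391% ± 0.0678 (n = 3) in LNCaP and from 0.442% ± 0.0508 to 0.465% (both libraries) in PC3.

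**Figure D3:**
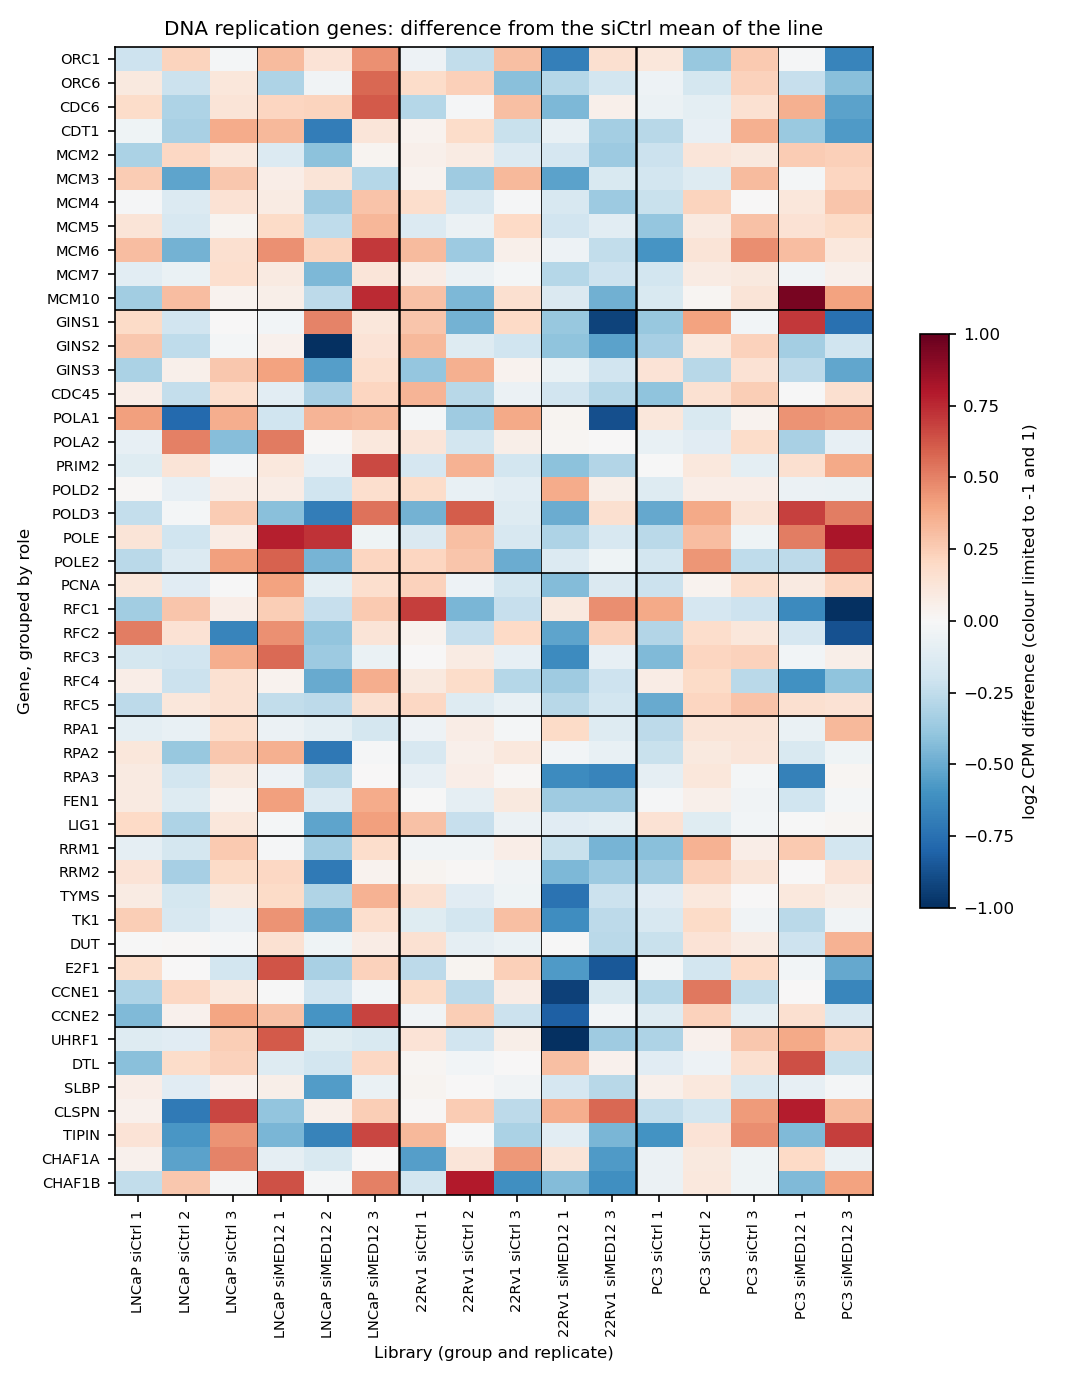
Log2 CPM of each of the 48 tested genes (rows, by role) in each library (columns) minus the siCtrl mean of its line, blue for lower and red for higher. Both 22Rv1 siMED12 columns are mostly blue, and so are LNCaP siMED12 replicate 2 and PC3 siCtrl replicate 1.

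By role, 11 of 11 licensing genes, 4 of 4 helicase activators, 5 of 5 nucleotide supply genes and 3 of 3 genes of S-phase entry had a 22Rv1 log2 fold change under 0, with medians of −0.26, −0.40, −0.41 and −0.67. The polymerases had 6 of 7 under 0 (median −0.23), the clamp and its loader 5 of 6 (−0.28), the single-strand binding and Okazaki fragment genes 4 of 5 (−0.14), and the chromatin and checkpoint genes 5 of 7 (−0.22).

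RPA3, the small subunit of RPA and the replication gene with the smallest P, was named after its values were seen, as was FEN1. It read 107, 114 and 119 CPM in 22Rv1 siCtrl and 70.5 and 72.1 CPM in siMED12. The groups did not overlap (−0.66 ± 0.19 SE, adjusted P = 0.0762). In LNCaP its libraries overlapped (−0.11 ± 0.19, adjusted P = 0.956), and in PC3 siMED12 replicate 1 was at 56.7 CPM and replicate 3 at 93.3 CPM, against 86.4 to 99.9 CPM (−0.36 ± 0.21, adjusted P = 0.974). FEN1, the flap nuclease of Okazaki fragments, read 219, 233 and 250 CPM with siCtrl and 182 CPM in both siMED12 libraries of 22Rv1 (−0.36 ± 0.16, adjusted P = 0.325).

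E2F1 read 93.7, 115 and 133 CPM in 22Rv1 siCtrl and 61.6 and 75.3 CPM in siMED12. Both siMED12 libraries were under the siCtrl range (−0.73 ± 0.23 SE, adjusted P = 0.100). In LNCaP the siMED12 libraries of E2F1 ran from 50.7 to 101 CPM around the siCtrl range (0.25 ± 0.22), and in PC3 from 62.2 to 88.4 CPM against 78.8 to 104 CPM (−0.22 ± 0.24). CCNE1 was at 6.36 and 12.8 CPM against 11.7, 15.4 and 16.9 CPM in 22Rv1 and overlapped (−0.67 ± 0.45, adjusted P = 0.611). There CCNE1 rested on 6 to 10 counts a library with siMED12 and 7 to 13 with siCtrl. CCNE2 overlapped too (−0.41 ± 0.28 in 22Rv1, 0.16 ± 0.33 in LNCaP, 0.01 ± 0.35 in PC3). In LNCaP and PC3 CCNE1 had values of −0.12 ± 0.28 and −0.35 ± 0.39.

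**Figure D4:**
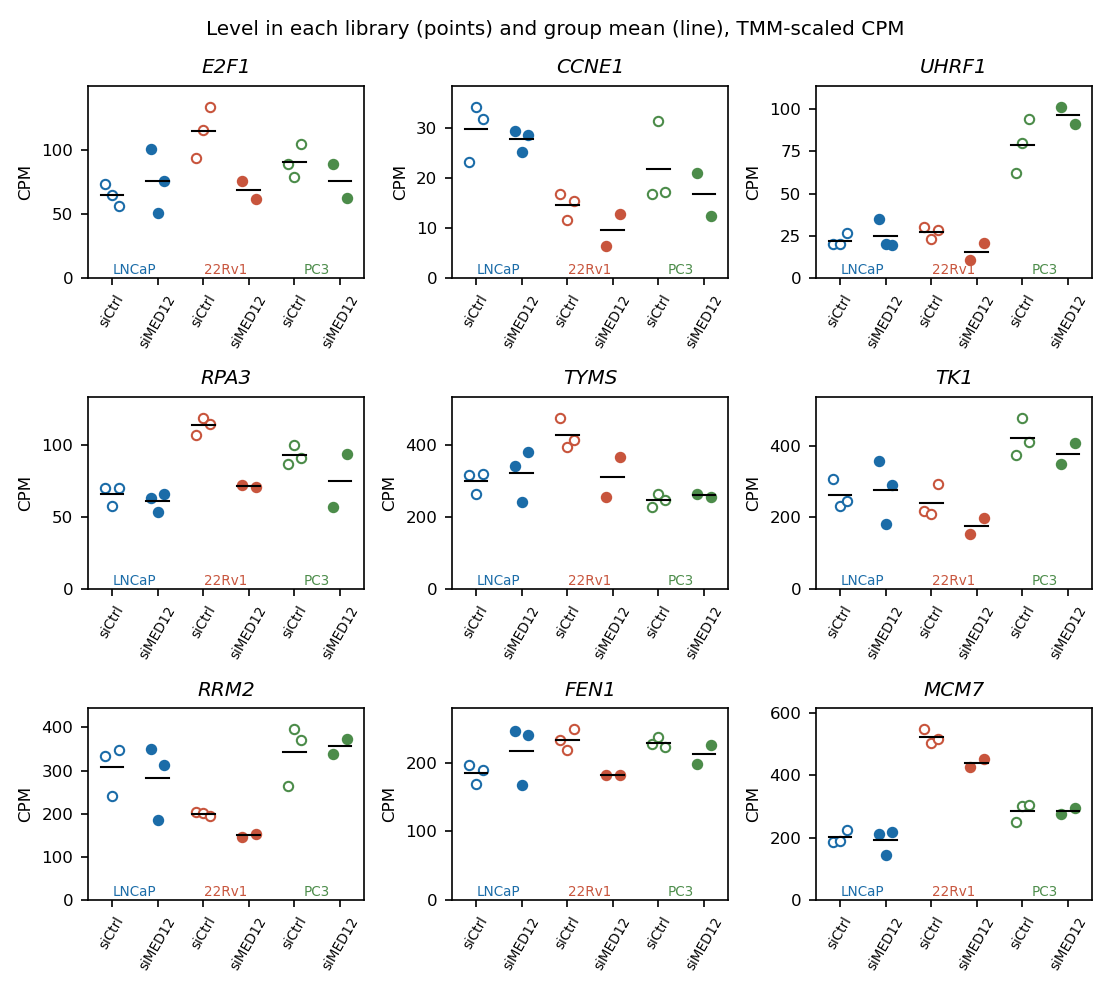
CPM of 9 genes in every library (open points siCtrl, filled points siMED12, colors by line) with the group mean as a line; axes start at 0. In 22Rv1 the filled points of E2F1, UHRF1, RPA3, TYMS, TK1, RRM2, FEN1 and MCM7 lie under the open ones, and those of CCNE1 overlap. RPA3 and FEN1 were chosen after their values were seen. MCM3, CDC6, CDT1, CDC45, PCNA and CCNE2, which overlapped in 22Rv1, are not drawn. Of all 48 tested genes, 17 lay under siCtrl without overlap in 22Rv1.

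Of the nucleotide supply genes, TYMS read 396, 416 and 478 CPM in 22Rv1 siCtrl and 256 and 368 CPM in siMED12. The libraries did not overlap, but the siMED12 libraries were far apart (−0.47 ± 0.17 SE, adjusted P = 0.165; 0.10 ± 0.15 in LNCaP and 0.08 ± 0.18 in PC3). TK1 read 209, 219 and 294 CPM with siCtrl and 154 and 198 CPM with siMED12 in 22Rv1 (−0.47 ± 0.21, adjusted P = 0.343; 0.09 ± 0.18 in LNCaP and −0.17 ± 0.19 in PC3). RRM2 was at 145 and 154 CPM against 194 to 203 CPM in 22Rv1, without overlap (−0.41 ± 0.21, adjusted P = 0.460), and its values were −0.13 ± 0.17 in LNCaP and 0.04 ± 0.19 in PC3. UHRF1 read 23.4, 28.2 and 29.9 CPM in 22Rv1 siCtrl and 10.6 and 20.5 CPM in siMED12. This was the largest negative value of the 48 in 22Rv1 (−0.85 ± 0.36 SE, adjusted P = 0.317), against 0.11 ± 0.31 in LNCaP and 0.31 ± 0.22 in PC3. In 22Rv1 UHRF1 rested on 10 to 16 counts a library with siMED12 and 14 to 23 with siCtrl.

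The 11 licensing genes had a median of −0.26 in 22Rv1, close to that of all 48 genes (−0.26). MCM7 read 427 and 451 CPM in 22Rv1 siMED12 against 501 to 549 CPM in siCtrl, without overlap (−0.25 ± 0.14 SE, adjusted P = 0.523), and overlapped in LNCaP (−0.07 ± 0.15) and PC3 (−0.00 ± 0.16). MCM3 was at −0.40 ± 0.25 in 22Rv1, −0.09 ± 0.26 in LNCaP and 0.08 ± 0.22 in PC3. CDC6 was at −0.23 ± 0.28 in 22Rv1, at 0.39 ± 0.30 in LNCaP, where its siMED12 libraries all lay above siCtrl, and at 0.07 ± 0.32 in PC3. CDT1 was at −0.20 ± 0.21 in 22Rv1, −0.08 ± 0.24 in LNCaP and −0.48 ± 0.31 in PC3, where both siMED12 libraries lay under siCtrl. Outside licensing, CDC45 was at −0.29 ± 0.23, −0.07 ± 0.25 and 0.04 ± 0.25 in the same order of lines. PCNA was at −0.30 ± 0.16, 0.17 ± 0.15 and 0.15 ± 0.16 in that order. None of these passed the test.

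Other genes are named for the ends of the range, after their values were seen. In 22Rv1 the highest value was that of CLSPN, the checkpoint mediator claspin (0.65 ± 0.59 SE), at 3.85 to 8.98 CPM in that line, close to the level of 3 counts. In LNCaP values ran from −0.23 ± 0.53 (CLSPN) to 0.58 ± 0.36 (POLE). In PC3 they ran from −0.88 ± 0.38 (RFC1, the large clamp loader subunit, unadjusted P = 0.0286) to 0.89 ± 0.44 (MCM10), and POLE was the other gene with an unadjusted P under 0.05 (0.66 ± 0.31). Filtered out and not tested were GINS4 with 3 to 15 counts a library, PRIM1 with 1 to 6, POLD1 with 0 to 11 and HELLS with 0 to 9.

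The differences between lines in the siMED12 effect were tested as interactions. None of the 48 genes passed for 22Rv1 against LNCaP (0.189% of all genes did), PC3 against LNCaP (0.0284%) or PC3 against 22Rv1 (0.0946%), and DESeq2 and limma called none either. The 22Rv1 effect minus the LNCaP effect was under 0 for 42 of 48 genes (48.2% of all genes), with a median of −0.29, and 4 were lower at an unadjusted P under 0.05 (3.8% of all genes): E2F1 (−0.97 ± 0.32 SE, adjusted P = 0.329), FEN1 (−0.60 ± 0.21), TYMS (−0.58 ± 0.22) and PCNA (−0.47 ± 0.23). The PC3 effect minus the 22Rv1 effect was under 0 for 9 of 48 (53.9% of all genes), with a median of 0.31 and 4 genes higher at an unadjusted P under 0.05 (3.52% of all genes), led by UHRF1 (1.16 ± 0.42, adjusted P = 0.367). The PC3 effect minus the LNCaP effect had a median of −0.02 and 0 genes at that level. These comparisons share samples, so the 22Rv1 values enter 2 of them.

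The 22Rv1 median was as large without 22Rv1 siMED12 replicate 3 and PC3 siMED12 replicate 3, both of which carried counts from another line, at −0.29 with 43 of 48 genes under 0. Without PC3 siCtrl replicate 3 it was −0.27, and with carried-over counts subtracted it was −0.27 with 43 under 0. UHRF1, which was high in PC3, had a 22Rv1 value of −1.36 without 22Rv1 and PC3 siMED12 replicate 3, more than 1.5 times the value with all libraries. That fit left only siMED12 replicate 1 in 22Rv1, at 10.6 CPM, and leaving out 22Rv1 siMED12 replicate 3 alone gave −1.36 too. With the subtraction UHRF1 was at −1.01. The 2 siMED12 libraries of 22Rv1 differed for single genes: without replicate 1 TYMS was at −0.24, UHRF1 at −0.43 and CCNE1 at −0.23, and without replicate 3 they were at −0.75, −1.36 and −1.21. Between the same fits CCNE2 ran from −0.037 to −0.86, MCM3 from −0.22 to −0.61 and PCNA from −0.17 to −0.45, while CDT1 was at −0.36 without replicate 1 and −0.077 without replicate 3. CDC45 ran from −0.41 without siCtrl replicate 2 to −0.090 without siCtrl replicate 1, and TK1 from −0.65 without siMED12 replicate 3 to −0.30 without siCtrl replicate 3. With any 1 library left out, RPA3 ran from −0.71 to −0.63, RRM2 from −0.45 to −0.39, MCM7 from −0.29 to −0.22 and FEN1 from −0.41 to −0.32. E2F1 ran from −0.90 to −0.60, a span at least as wide as those of PCNA and CDT1. No gene passed the threshold in the fits without 1 siCtrl library.

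Other genes of replication and of the cell cycle gave a background to these values. Of 40 further replication genes, 33 were tested and 0 called in any line (edgeR, 2 in 22Rv1 at an unadjusted P under 0.05), with 24 under 0 in 22Rv1 (median −0.20), 17 in LNCaP and 12 in PC3. Of 32 further S-phase or E2F-regulated genes, 30 were tested and 0 called (5 in 22Rv1 at an unadjusted P under 0.05), with 27 under 0 in 22Rv1 (median −0.30), 15 in LNCaP and 13 in PC3. Of 22 G2/M genes, 20 were tested and 17 were under 0 in 22Rv1 (median −0.40), 8 of them at an unadjusted P under 0.05 (5.37% of all genes), where UBE2C, the mitotic ubiquitin-conjugating enzyme, was called lower (216 ± 12.5 CPM, n = 2, against 317 ± 26.2 CPM, n = 3; −0.56 ± 0.15 SE, adjusted P = 0.0361), with 9 under 0 in LNCaP and 8 in PC3. The 18 G1 regulators had 7 under 0 in 22Rv1 (median 0.05). Among them MYC, a transcription factor that drives growth and S-phase entry, was called lower in 22Rv1 (−0.88 ± 0.15, adjusted P = 0.000897) and in LNCaP (−0.65 ± 0.14, adjusted P = 0.0151). Its levels were 751, 770 and 973 CPM with siCtrl and 419 and 484 CPM with siMED12 in 22Rv1, and 604, 706 and 869 CPM against 413, 479 and 489 CPM in LNCaP, without overlap in either line. In PC3 no gene of these 4 lists passed the test.

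Counts of a few of these genes may hold reads of a neighbor, since the strand setting of the counting is not given in the sources used here. On Gencode 44, the last 1000 bases of 15 of the 52 genes overlapped another gene, 12 of them on the opposite strand and 4 on the same strand, 1 gene having both. TYMS (chr18:657653-673578) shares this stretch with ENOSF1 on the opposite strand and FEN1 (chr11:61792911-61797238) with FADS2 on the same strand. E2F1 (chr20:33675477-33686385), RPA3 (chr7:7636518-7718607), UHRF1 (chr19:4903080-4962154) and TK1 (chr17:78174091-78187233) had no such neighbor. Pseudogenes named after these genes had at most 3 counts in a library.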

How the data were processed

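Spheroid RNA was sequenced with BRB-seq, a 3′ tag method in which each sample is barcoded at reverse transcription, so that counts do not depend on transcript length. The authors counted reads with STARsolo (version not given) on GRCh38.p13 with Gencode 43 and deposited raw counts for 62703 genes; the collapse of molecular identifiers and the strand setting are not given in the sources used here. The deposited log2 CPM values were made by the authors with edgeR and were recomputed here to within 4.97e-14. Groups came from the labels.

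Genes passing filterByExpr (minimum count 10, minimum total 15) entered a 2-sided quasi-likelihood test (edgeR 4.0.16, R 4.3.3) in 1 fit of 16 libraries with TMM scaling and 6 group means (common biological coefficient of variation 0.125), for 9 contrasts: siMED12 effects, their differences between lines, and siCtrl differences. P values were adjusted by Benjamini-Hochberg over 10566 genes at a threshold of 0.05. The SE is the log2 fold change over the square root of F. The procedure was tested on simulated data. DESeq2 1.42.0, limma 3.58.1, other scaling and filters, thinning to the smallest library, subtraction of carried-over counts, a replicate block, and fits without single libraries were alternatives; an older form of the edgeR fit was added after seeing the data. Carried-over counts were measured on genes with at least 50 CPM in 1 line and at most 2% of it in the others.

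The 52 genes, the other lists, their roles and the tests were chosen with earlier results of these data known. Named were, per contrast, up to 8 higher and 8 lower genes past the threshold, by P; 13 genes in every line (MCM3, MCM7, CDC6, CDT1, CDC45, PCNA, RRM2, TYMS, TK1, UHRF1, CCNE1, CCNE2 and E2F1); and genes filtered out. Others, with RPA3 and FEN1, were named after their values were seen. Coordinates come from Gencode 44 on GRCh38, all 52 genes matched by identifier; promoter sequences come from RefSeq on GRCh38.p14, where 45 genes matched by symbol.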

Additional observations from a re-analysis of the deposited data

How the results depend on the processing

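No siMED12 call was made for any of the 48 genes in LNCaP, in PC3 or in the interactions under any alternative run; in 22Rv1 the alternatives called 0 to 2 genes, with medians from −0.37 to −0.23 and 40 to 44 genes under 0. Both calls came with a replicate block of line and number (TYMS −0.54, adjusted P = 0.0264; TK1 −0.54, adjusted P = 0.0373), and that fit called 312 of all genes in 22Rv1 in place of 194, 117 in LNCaP in place of 44, and 20 in PC3 in place of 0. Samples with the same number correlated in their deviations over all genes at 0.0516 to 0.214. Each siMED12 library did so best with its own number, a hint from the data. With 2 siMED12 libraries in 22Rv1 and in PC3, their deviations mirror each other and do not count separately. Over the 48 genes the same-number correlations ran from −0.184 to 0.209, and the own number was not always the best. Not all pairs exceeded 0.1 over all genes and the labels do not pair the libraries, so they were not treated as paired. Thinning moved the 22Rv1 median to −0.37, with 47 genes tested. For PC3 against LNCaP siCtrl, 20 called genes became 13 with DESeq2 and 12 to 21 when 1 library was left out, the 12 without LNCaP siCtrl replicate 3. Over all genes, 22Rv1 had 194 calls, 85 with DESeq2, 118 after thinning, 111 without 22Rv1 and PC3 siMED12 replicate 3 and 74 to 220 with 1 library left out. LNCaP had 44 calls, 29 with DESeq2 or limma, 95 without a filter and 12 to 55 with 1 library left out. PC3 had 0 calls, 9 without a filter, 1 with limma and 0 to 3 with 1 library left out (3 without PC3 siCtrl replicate 2).

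Among single genes 52 values changed sign, most of them near 0. With 1 library left out, LNCaP values ran from −0.29 to 0.085 for MCM3, −0.17 to 0.10 for MCM7, −0.26 to 0.18 for CDT1, −0.25 to 0.059 for CDC45, −0.29 to 0.10 for RRM2, −0.038 to 0.27 for TYMS, −0.11 to 0.31 for TK1, −0.18 to 0.30 for UHRF1 and −0.20 to 0.46 for CCNE2. PC3 values ran from −0.023 to 0.25 for MCM3, −0.084 to 0.044 for MCM7, −0.59 to 0.39 for CDC6, −0.13 to 0.15 for CDC45, −0.11 to 0.17 for RRM2, −0.85 to 0.051 for CCNE1, −0.20 to 0.17 for CCNE2 and −0.71 to 0.0077 for RPA3. CDC6 in 22Rv1 ran from −0.51 to 0.014. In each of these fits the cause was not tested. Thinning gave LNCaP values of 0.16 for MCM3 and 0.068 for CCNE1, and PC3 values of 0.015 for MCM7, −0.10 for CDC6, −0.019 for CDC45, −0.042 for RRM2 and −0.26 for CCNE2. Without 22Rv1 and PC3 siMED12 replicate 3, PC3 values were −0.034 for MCM3, −0.040 for CDC45 and −0.033 for RRM2. With carried-over counts subtracted they were 0.0011 for MCM7 and −0.00067 for CCNE2. MCM7 in PC3 was 0.0062 with relative log expression scaling, 0.0073 without a filter, 0.0069 with DESeq2, 0.0072 with limma, 0.052 with the replicate block and 0.036 with the line fitted alone. CDC6 in PC3 was −0.091 with limma and −0.012 with the block, where CCNE1 was 0.027. The PC3 median was −0.07 without siCtrl replicate 1 and −0.02 without siMED12 replicate 3.

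The depth of 479118 to 993807 counts limits genes with few counts, and 2 siMED12 libraries in 22Rv1 and PC3 limit every comparison there. The lone library left when 1 of them was dropped was assumed to vary like the other groups.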
